A study of Homo sapiens with 4 samples.

Results

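The 10 genes described here encode the 5 subunits of the transcription factor NF-κB (NFKB1, NFKB2, REL, RELA and RELB), 2 of its inhibitors (NFKBIA and NFKBIE) and 3 proteins whose genes it is known to induce (TNFAIP3, BIRC3 and ICAM1). They were chosen by symbol, as the 10 rows with these names among the 59050 gene rows of an RNA-seq experiment. All 10 passed the filter on low counts, which left 17479 genes to be tested. The experiment had 2 libraries of untreated cells (0 h) and 2 of cells kept for 24 h with doxorubicin (1 µg/ml), an anthracycline that breaks DNA, in order to raise p53. All 4 libraries were labelled as HepG2, a line established from a human liver tumor. The titles read "nop53" for the untreated and "p53" for the doxorubicin samples. Beyond these words, no genetic change is named for either group. A treatment tag of the doxorubicin samples reads "p53-miRNA", and the same protocol text stands on all 4 samples, so the groups were taken from the titles and the description of the series.

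NF-κB dimers are held in the cytoplasm by IκB proteins until the IκB kinase (IKK) marks the inhibitor for degradation and the dimer enters the nucleus. In the alternative branch, the precursor made from NFKB2 is cut to p52, which pairs with RelB. Many genes switched on by NF-κB encode its own brakes, such as IκBα and the ubiquitin editing enzyme A20, so the pathway is known for feedback loops. DNA damage is also known to activate it, through the kinase ATM and the IKK subunit NEMO in the nucleus.

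Promoter sequences are shown because κB sites are known from the promoters of several feedback genes of NF-κB. RefSeq windows (GRCh38.p14, 250 bases before to 50 bases after each annotated start) were found by symbol for 8 of the 10 genes (not RELB and NFKBIE), in 12 windows, since NFKB1, NFKB2 and RELA have several starts. Both strands were searched for the κB consensus of 10 letters and for GGAANTTCC (N is any base), whose matches can lie inside those of the consensus. The κB consensus matched in 7 of the 12 windows, from 6 genes, and in 11.3% of all 35116 windows. GGAANTTCC matched in 4 windows, from NFKB1, REL, NFKBIA and ICAM1, and in 0.965% of all windows. These are matches of letters and no evidence of binding. The sequences that follow all lie upstream of the RefSeq start of their window, which can differ from the gene start given further below from another annotation (GENCODE). They run 5′ to 3′ on the strand of the gene, and capitals mark the bases covered by a match on either strand.
NFKBIA (chr14:35404801-35404850, minus strand): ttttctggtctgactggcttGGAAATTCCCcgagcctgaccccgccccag
TNFAIP3 (chr6:137867172-137867233, plus strand): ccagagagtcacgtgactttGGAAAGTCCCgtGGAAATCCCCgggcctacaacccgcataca
BIRC3 (chr11:102317265-102317378, plus strand): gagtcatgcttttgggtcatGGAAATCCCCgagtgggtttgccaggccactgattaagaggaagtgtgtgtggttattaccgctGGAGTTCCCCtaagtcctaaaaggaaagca
NFKB1 (chr4:102501290-102501339, plus strand): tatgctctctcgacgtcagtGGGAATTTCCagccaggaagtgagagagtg
NFKB2 (chr10:102394451-102394529, plus strand): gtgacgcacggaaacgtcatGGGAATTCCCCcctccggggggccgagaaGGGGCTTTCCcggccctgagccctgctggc
REL (chr2:60881507-60881557, plus strand): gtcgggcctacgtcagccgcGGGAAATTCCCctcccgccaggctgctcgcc
ICAM1 (chr19:10270914-10270962, plus strand): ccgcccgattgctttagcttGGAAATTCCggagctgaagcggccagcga
In REL, NFKB1, NFKBIA and TNFAIP3 the matches lay within 81 bases of the start, and TNFAIP3 held 2 of them. BIRC3 also held 2, at 199 to 190 and 135 to 126 bases upstream. NFKB2 had matches in 2 of its 3 windows, of which 1 is shown. Neither motif was found in the 2 windows of RELA.

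The libraries held between 27572740 and 36272180 counts. Untreated replicate 2 stood apart from the other 3. Its CPM (the count of a gene over the total of its library, times 1000000) was outside the range of the other 3 libraries in 81.6% of the 17479 genes tested, so the comparison of the 10 genes is given with and without it. The cell identity rests on the labels. Of the 16 liver markers, ALB had at most 3 counts in any library and APOB at most 7. AFP had 6 and 43 counts in untreated and 16 and 11 in doxorubicin libraries, and HNF4A had 21 and 8 against 66 and 33. Together the 16 made up a CPM of 1.30 and 5.99 in untreated and of 7.55 and 6.67 in doxorubicin libraries. The fibrinogen gene FGB had 7 and 5 counts in untreated and 106 and 70 in doxorubicin libraries. FGA had 5 and 6 against 34 and 36. Both passed the filter on low counts through the doxorubicin libraries. Without untreated replicate 2, the log2 fold change was 3.71 for FGB and 2.86 for FGA. The 6 markers of simple epithelium had a summed CPM of 5901 and 4756 in untreated and of 3530 and 3030 in doxorubicin libraries, nearly all from KRT8 and KRT18, while EPCAM had at most 7 counts and CDH1 at most 21. Of the 6 squamous markers SFN made up nearly the whole sum, which was 255 and 727 in untreated and 181 and 158 in doxorubicin libraries. KRT5, KRT6A, TP63 and DSG3 had at most 13 counts. The 7 fibroblast markers summed to 226 and 169 in untreated and to 283 and 284 in doxorubicin libraries. Of the 5 tested, 2 (DCN and LUM) had a log2 fold change above 0 without untreated replicate 2, where the median was -0.29. With 4 libraries it was also above 0 in 2 of the 5, at a median of -0.02. The 6 endothelial markers summed to 10.4 and 7.45 in untreated and to 4.58 and 3.84 in doxorubicin libraries. The 7 leukocyte markers had a summed CPM of 3.25 and 3.98 in untreated and of 8.28 and 8.02 in doxorubicin libraries, mostly from CSF1R and ITGB2, with at most 12 counts for PTPRC, the gene of CD45.

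The doxorubicin libraries were compared with the untreated libraries by the quasi-likelihood test of edgeR over all genes, where a gene was called if its adjusted p-value (Benjamini-Hochberg) was under 0.05 and its level changed by 1 or more on the log2 scale. Each log2 fold change is given with its standard error (SE). Where an untreated replicate is left out, SE and p-value rest on the spread of the doxorubicin replicates alone. With all 4 libraries, 0 of the 10 genes passed, as did 0.0% of all genes tested. None of the 10 reached an unadjusted p-value under 0.05, a level that 4.39% of all genes reached. Their adjusted p-values were between 0.773 and 0.997, and their log2 fold changes between -0.63 and 1.21, with 6 above 0 (50.8% of all genes were) and 4 below. The median over the 10 genes was 0.23, beside 0.01 over all genes tested. In bulk RNA, a lower level in each cell and fewer cells with the transcript cannot be told apart.

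**Figure D1:**
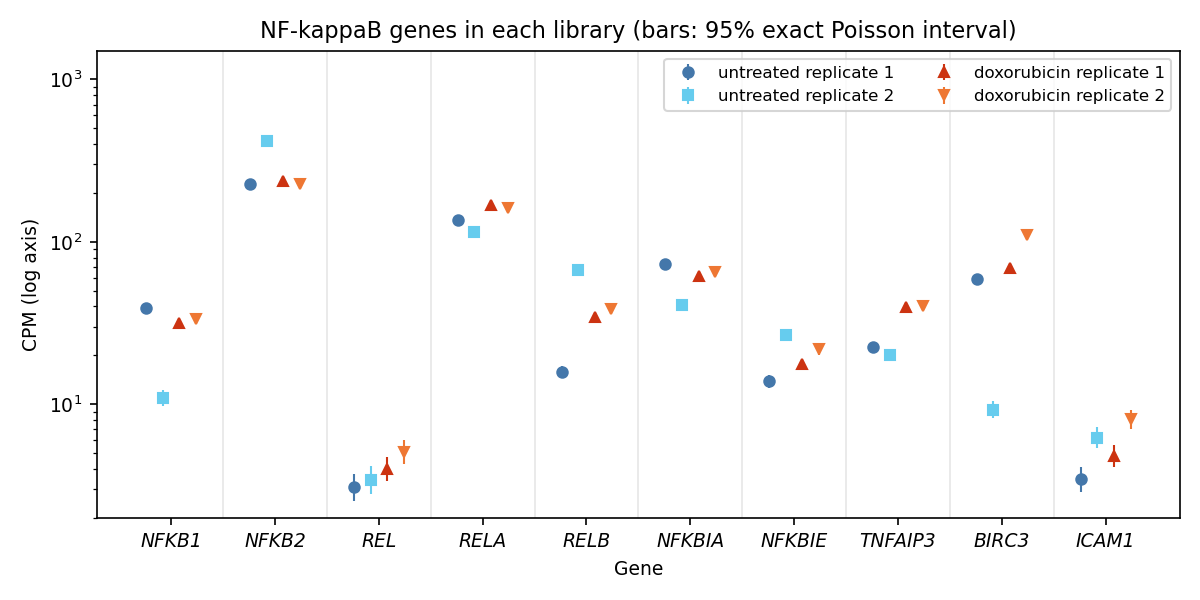
CPM (log axis) of each of the 10 genes in the 4 libraries, with 1 symbol for each library and bars for the 95% exact Poisson interval of the count. Both doxorubicin symbols lie above both untreated symbols in REL, RELA, TNFAIP3 and BIRC3, and the square of untreated replicate 2 is the lowest in 5 genes and the highest in 3.

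Among the subunits, RELA (chromosome 11, 65653599 to 65663090, GRCh38) encodes p65, the subunit that carries most of the activating function. It stood at a CPM of 136 (replicate 1) and 115 (replicate 2) without the drug, and of 169 and 162 with it. Both doxorubicin libraries were above both untreated libraries, by a log2 fold change of 0.24 (SE 0.30, 95% interval -0.51 to 0.99, adjusted p = 0.821) that is no larger than the distance between the untreated replicates. Without untreated replicate 2 it was 0.13 (SE 0.23, adjusted p = 0.805). The divergent transcript RELA-DT overlaps RELA on the opposite strand and had between 47 and 203 counts, against 3317 or more for RELA. The use of strand in counting is not given in the sources used here. Annotated partners that overlap exons of REL, TNFAIP3, BIRC3 and ICAM1 were not analysed here, so reads shared with them cannot be told apart.

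REL (chromosome 2, 60881491 to 60931612) encodes c-Rel, a subunit best known from lymphocytes. It had the fewest counts of the 10 genes, with 112, 99, 137 and 141 in untreated replicates 1 and 2 and doxorubicin replicates 1 and 2. The CPM was 3.09 (95% exact Poisson interval 2.54 to 3.72) and 3.43 (2.79 to 4.17) in untreated cells and 3.99 (3.35 to 4.72) and 5.11 (4.30 to 6.03) in treated cells. The groups did not overlap, but the intervals of counting error of untreated replicate 2 and doxorubicin replicate 1 did. Doxorubicin over untreated gave a log2 fold change of 0.32 (SE 0.50, 95% interval -0.93 to 1.57, adjusted p = 0.849), and of 0.40 (SE 0.36, adjusted p = 0.583) without untreated replicate 2.

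NFKB1 (chromosome 4, 102501330 to 102617302) encodes p105, the precursor of p50, and is thus both a subunit and an inhibitor. Before treatment its CPM was 39.2 in replicate 1 but 10.9 in replicate 2, and after doxorubicin it was 31.6 and 33.5. Untreated replicate 2 was the lowest library, and untreated replicate 1, which was 3.59-fold above it, was the highest. Over 4 libraries the log2 fold change of 0.21 (SE 0.64, adjusted p = 0.923) did not pass, and it turned to -0.42 (adjusted p = 0.355) without untreated replicate 2 and became 1.49 (adjusted p = 8.54e-07) without untreated replicate 1.

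NFKB2 and RELB, the pair of the alternative branch, had the opposite pattern in the untreated replicates. NFKB2 (chromosome 10, 102394110 to 102402524) stood at a CPM of 226 (replicate 1) and 416 (replicate 2) without the drug and of 235 and 225 with it. Untreated replicate 2 was 1.84-fold above replicate 1, while replicate 1 and both doxorubicin libraries lay within a CPM of 225 to 235. It gave a log2 fold change of -0.63 (SE 0.38, 95% interval -1.58 to 0.31, adjusted p = 0.773), and -0.12 (SE 0.22, adjusted p = 0.829) without untreated replicate 2.

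RELB (chromosome 19, 45001461 to 45038192) had the widest difference among the subunits. Untreated replicate 1 had a CPM of 15.7 and untreated replicate 2 of 67.4, and the doxorubicin replicates had 34.5 and 38.4. Both treated libraries thus lay between the untreated ones, which were 4.28-fold apart, and the log2 fold change over 4 libraries was -0.34 (SE 0.69, 95% interval -2.06 to 1.37, adjusted p = 0.887). Without untreated replicate 2, RELB rose by 1.06 on the log2 scale (SE 0.27, 95% interval 0.53 to 1.59, adjusted p = 0.00359). Without untreated replicate 1 the log2 fold change was -0.97 (SE 0.24, adjusted p = 1.4e-04), the opposite direction. The direction of RELB was therefore set by the untreated library used as reference.

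Levels of different genes were compared as CPM per kilobase of exon (union of the exons of the basic transcripts, GENCODE release 44). In untreated replicate 1, NFKB2 made up 51.5% of the summed level of the 5 subunits, RELA 34.8%, NFKB1 7.46%, RELB 6.01% and REL 0.24%. In doxorubicin replicates 1 and 2, NFKB2 made up 46.2% and 45.1%, RELA 37.1% and 36.2%, RELB 11.3% and 12.8%, and NFKB1 5.17% and 5.58%. The largest departure was in untreated replicate 2, where NFKB2 made up 62.3%, RELB 16.9% and RELA 19.3%, while NFKB1 was at 1.37%. By the same measure, NFKB2 was 6.91 times NFKB1 in untreated replicate 1, 45.6 times in untreated replicate 2, and 8.92 and 8.08 times in the doxorubicin libraries. RELB was 0.173 and 0.877 times RELA in untreated replicates 1 and 2, and 0.305 and 0.355 times in the doxorubicin libraries, again between the 2 untreated values. These shares are descriptions of the 4 libraries and were not tested.

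**Figure D2:**
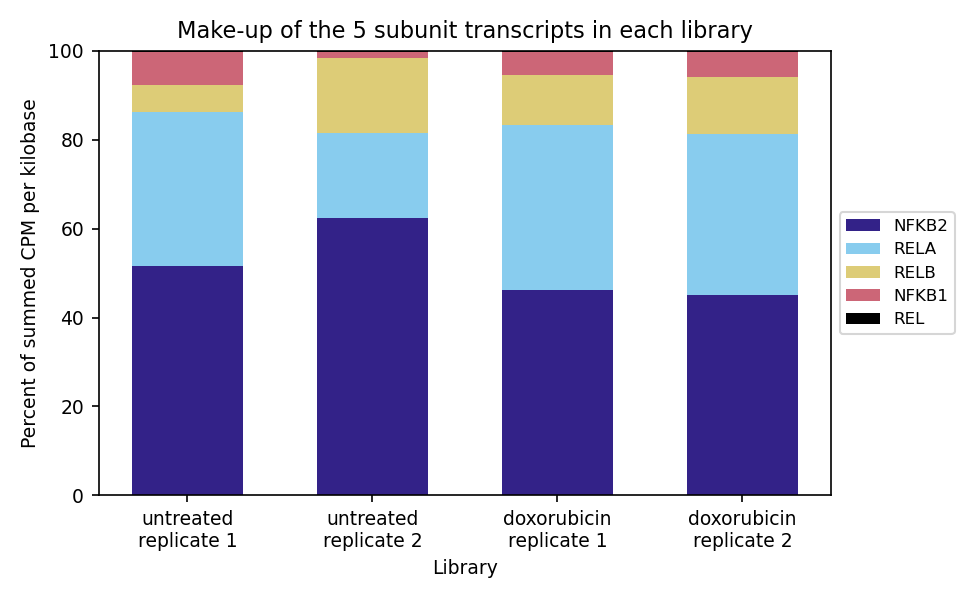
Percent of the summed CPM per kilobase of the 5 subunit genes (vertical axis) in each of the 4 libraries (horizontal axis), stacked by gene. NFKB2 and RELA fill most of each bar, REL is too small to be seen at under 1%, and untreated replicate 2 has the widest bands of NFKB2 and RELB and the narrowest of RELA and NFKB1.

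Of the inhibitors, NFKBIA (chromosome 14, 35401079 to 35404749) encodes IκBα, the IκB that is remade within the feedback loop. Both treated libraries, at a CPM of 61.7 and 65.5, stood between untreated replicate 1 (73.4) and untreated replicate 2 (41.1). The resulting log2 fold change was -0.01 (SE 0.40, 95% interval -1.02 to 1.00, adjusted p = 0.997). The interval reaches from -1 to 1 on the log2 scale, so an unchanged level was not shown. It was -0.36 (SE 0.23, adjusted p = 0.420) without untreated replicate 2 and 0.54 (SE 0.25, adjusted p = 0.0488) without untreated replicate 1. NFKBIE (chromosome 6, 44258166 to 44265788), which encodes IκBε, had its lowest CPM in untreated replicate 1 (13.8), its highest in untreated replicate 2 (26.7), and 17.7 and 21.9 after doxorubicin. Here too the treated libraries were between the untreated ones, at a log2 fold change of -0.19 (SE 0.48, 95% interval -1.38 to 0.99, adjusted p = 0.907). Without untreated replicate 2 its sign turned, to 0.37 (SE 0.28, adjusted p = 0.489). Per kilobase, NFKBIE was 0.163 and 0.563 times NFKBIA in untreated replicates 1 and 2 and 0.248 and 0.290 times in doxorubicin replicates 1 and 2. In untreated replicate 2 the 2 inhibitors thus stood nearer to each other than in the other 3 libraries, NFKBIA being at its lowest and NFKBIE at its highest.

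Of the induced genes, TNFAIP3 (chromosome 6, 137867214 to 137883314) encodes A20, which removes activating ubiquitin chains and so ends the signal. Its untreated replicates were among the closest of the 10 genes, with a CPM of 22.5 and 20.1, and its treated replicates had 39.5 and 40.4. Every doxorubicin library was between 1.76-fold and 2.01-fold above every untreated library. This gave a log2 fold change of 0.75 (SE 0.36, 95% interval -0.14 to 1.65), with the smallest unadjusted p-value of the 10 genes in the edgeR test (0.0846, adjusted 0.773). It was 0.68 (SE 0.26, adjusted p = 0.0911) without untreated replicate 2 and 0.91 (SE 0.26, adjusted p = 0.00159) without untreated replicate 1. In none of these fits did it reach the log2 fold change of 1 needed for a call.

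BIRC3 (chromosome 11, 102317484 to 102339403) encodes cIAP2, a ubiquitin ligase at the tumor necrosis factor receptors that restrains cell death. Untreated replicate 1 had a CPM of 59.2 and untreated replicate 2 of 9.28, so they were 6.37-fold apart, the largest distance among the 10 genes. The treated replicates had 68.5 and 109.6, both above both untreated libraries, and they were 1.60-fold apart themselves. Over 4 libraries the log2 fold change was 1.21 (SE 0.83, 95% interval -0.88 to 3.29, adjusted p = 0.773). Without untreated replicate 2 it was 0.44 (SE 0.24, adjusted p = 0.303), and without untreated replicate 1 it was 3.17 (SE 0.29, adjusted p = 2.8e-25). The size of the BIRC3 difference thus depended on which untreated library was kept.

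ICAM1 (chromosome 19, 10271093 to 10286615) encodes the adhesion molecule ICAM-1, to which leukocytes bind. It had 125 and 180 counts without the drug and 166 and 223 with it. The CPM was 3.45 (95% exact Poisson interval 2.87 to 4.11) in untreated replicate 1, 6.23 (5.36 to 7.21) in untreated replicate 2, 4.84 (4.13 to 5.63) in doxorubicin replicate 1 and 8.09 (7.06 to 9.22) in doxorubicin replicate 2. The groups overlapped, and the second replicate was the higher one in both of them. No call was made for the log2 fold change of 0.25 (SE 0.57, 95% interval -1.15 to 1.66, adjusted p = 0.895), which was 0.74 (SE 0.35, adjusted p = 0.207) without untreated replicate 2.

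Across the 10 genes, both doxorubicin libraries were above both untreated libraries in 4 (REL, RELA, TNFAIP3 and BIRC3), beside 30.3% of all genes tested, and below both in 0, beside 11.5%. Both were above untreated replicate 1 in 7 genes (background 53.1%) and below it in 2, NFKB1 and NFKBIA (background 24.7%). Untreated replicate 2 was outside the range of the other 3 libraries in 8 of the 10 genes, close to the 81.6% of all genes. It was the highest in 3 (NFKB2, RELB and NFKBIE), beside 36.6% of all genes, and the lowest in 5 (NFKB1, RELA, NFKBIA, TNFAIP3 and BIRC3), beside 45.0%. The median distance between untreated replicates was 0.87 on the log2 scale for the 10 genes and 0.89 for the 17325 genes tested that had a count in every library. Between doxorubicin replicates it was 0.12 and 0.25. In 8 of the 10 genes the untreated replicates were further apart than the log2 fold change over 4 libraries is large, the exceptions being REL and TNFAIP3.

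**Figure D3:**
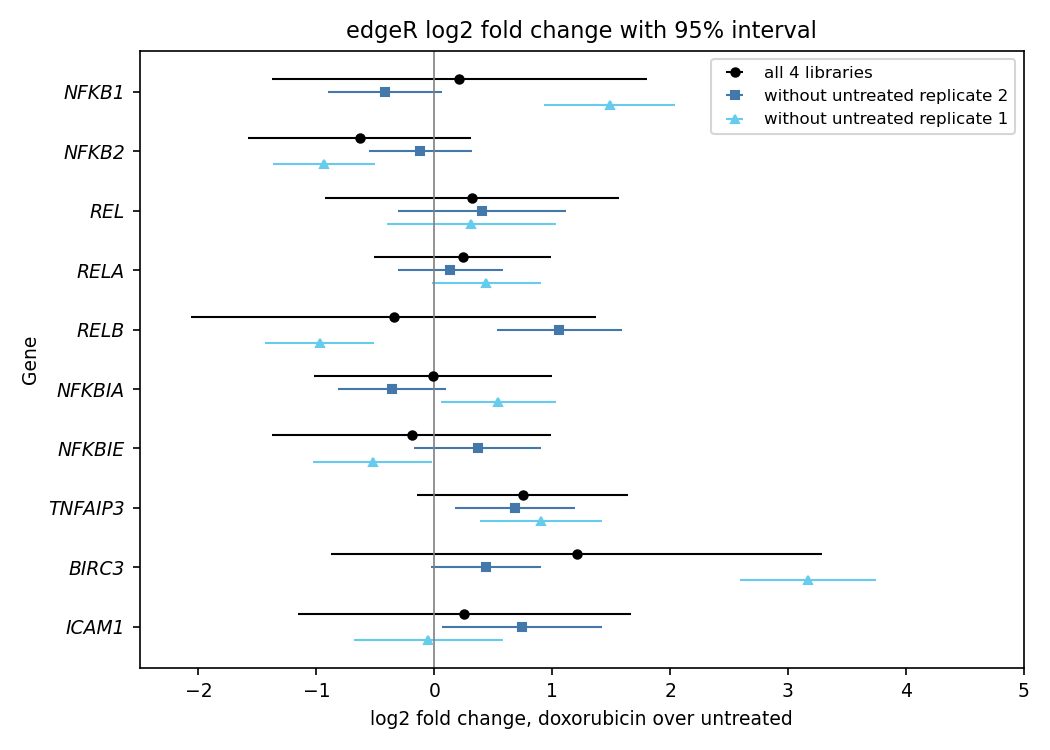
Log2 fold change of doxorubicin over untreated cells (horizontal axis) with its 95% interval for each of the 10 genes, from the edgeR fits with all 4 libraries, without untreated replicate 2 and without untreated replicate 1. All black intervals (4 libraries) cross 0, while the fits without untreated replicate 1 or 2 stand on opposite sides of 0 for NFKB1, RELB, NFKBIA, NFKBIE and ICAM1.

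Without untreated replicate 2, RELB alone of the 10 genes was called (18356 genes tested), where 3.88% of all genes were called as higher with doxorubicin and 0.556% as lower. The log2 fold change was above 0 in 7 of the 10 genes (54.3% of all genes), with a median of 0.39 for the 10 and 0.05 for all genes tested. An unadjusted p-value under 0.05 was reached by 3 of the 10 (RELB, TNFAIP3 and ICAM1, all higher with doxorubicin) and by 12.2% of all genes in that direction. In this fit and in that without untreated replicate 1, the spread is estimated from the doxorubicin replicates. The lone untreated library is assumed to vary in the same way. Over the genes with a count in every library, the median distance was 0.89 between untreated and 0.25 between doxorubicin replicates (log2 scale). The p-values and calls of these fits therefore do not measure the spread of untreated cells. Without untreated replicate 1, NFKB1 and BIRC3 were called as higher, where 21.2% of all genes were called as higher and 23.2% as lower.

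By level per kilobase in the doxorubicin libraries, the 10 genes stood in the order NFKB2 (mean 60.9), RELA (48.9), NFKBIA (28.5), RELB (16.1), BIRC3 (12.5), TNFAIP3 (8.22), NFKBIE (7.67), NFKB1 (7.17), ICAM1 (2.16) and REL (0.40). The replicate values of RELB and BIRC3 overlapped, as did those of TNFAIP3 and NFKBIE and those of NFKBIE and NFKB1, so these neighbours were not separated. In untreated cells NFKB2, RELA and NFKBIA were again the highest and ICAM1 and REL the lowest. Between them stood, from high to low, RELB, NFKBIE, NFKB1, BIRC3 and TNFAIP3. The neighbours from NFKBIA to TNFAIP3 in this untreated order all overlapped, since the untreated replicates were further apart.

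The gene with the largest log2 fold change without untreated replicate 2 was RELB. Among 12326 other genes with a mean log2 CPM of at least 1, the profiles nearest to it over the 4 libraries, by the root-mean-square difference of centred log2 CPM, were those of FOXD1 (0.0384), EEF1AKMT3 (0.0606) and CASKIN1 (0.0649), beside 0.845 for the gene in the middle of the ranking. FOXD1 encodes a forkhead transcription factor and had a CPM of 12.2 and 49.3 in untreated and 25.5 and 29.7 in doxorubicin libraries. In all 3 genes, as in RELB, untreated replicate 1 was the lowest and untreated replicate 2 the highest. The genes were picked for their likeness to RELB in these same libraries, so the shared order follows from the choice. The likeness rests on only 4 libraries.

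The rest of the pathway was examined as 7 lists of 111 genes, of which LTBR and N4BP1 were not analysed here and 91 passed the filter. With 4 libraries 0 of the 91 were called (background 0.0%), and 5 had an unadjusted p-value under 0.05 in the edgeR test, beside 4.39% of all genes. Without untreated replicate 2, 9 of the 91 were called as higher and 1 as lower, beside 3.88% and 0.556% of all genes. The machinery upstream of the subunits had no call with 4 libraries or without untreated replicate 2, but did without untreated replicate 1, where 21.2% of all genes were called as higher and 23.2% as lower. Of the 13 genes of the IKK complex, its upstream kinases and their adaptors (median log2 fold change 0.25 with 4 libraries, -0.05 without untreated replicate 2 and 0.98 without untreated replicate 1), 6 were then called as higher. Of the receptors and adaptors (medians 0.29, 0.19 and 0.63), 8 of 19 were then called as higher and 1 as lower. Of the 10 genes that carry the signal of nuclear DNA damage, such as ATM (medians -0.05, 0.07 and 0.24), 3 were then called as higher and 2 as lower.

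Among the 7 genes of other IκB proteins and of factors that act on IκB (median -0.15 with 4 libraries and 0.11 without untreated replicate 2), NFKBIZ was called without untreated replicate 2. It encodes the nuclear protein IκBζ, and its CPM went from 2.73 in untreated replicate 1 to 12.6 in untreated replicate 2, with 6.99 and 8.12 after doxorubicin. As with RELB, the treated values stood between the untreated ones. Its log2 fold change was 1.32 without untreated replicate 2 (adjusted p = 0.00786), -0.16 with it and -0.82 without untreated replicate 1.

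Of the 14 ubiquitin editors and other brakes (median 0.27 and 0.19), TRAF1 and CYLD were called without untreated replicate 2. CYLD encodes a deubiquitinase that opposes IKK activation, with a CPM of 27.7 and 136.0 in untreated and 51.2 and 84.6 in doxorubicin libraries. Its log2 fold change was 1.14 without untreated replicate 2 (adjusted p = 5.6e-04) and -1.09 without untreated replicate 1 (adjusted p = 7.0e-06), so that its direction turned as that of RELB did. TRAF1, an adaptor that binds TRAF2, differed from it in having both treated libraries above both untreated ones, at 2.19 and 2.36 against 0.50 and 1.18. Its log2 fold change was 2.04 without untreated replicate 2 (adjusted p = 0.00712), 1.32 with all 4 libraries (adjusted p = 0.773) and 0.86 without untreated replicate 1 (adjusted p = 0.109).

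Of 21 other known target genes (median -0.13 and 0.28), LCN2 and NUAK2 were called without untreated replicate 2. LCN2 encodes lipocalin 2, an iron-sequestering protein, and had 3 and 7 counts in untreated and 55 and 30 in doxorubicin libraries. It passed the filter on low counts through the doxorubicin libraries. The ratio of its CPM in the doxorubicin libraries together to that in untreated replicate 1 was 16.6, with an exact interval of counting error from 5.49 to 82.1. Its log2 fold change was 3.84 without untreated replicate 2 (adjusted p = 5.9e-04), 2.95 with 4 libraries (adjusted p = 0.773) and 2.39 without untreated replicate 1 (adjusted p = 0.00221). NUAK2, which encodes a kinase of the AMPK family, was the gene called as lower, with a CPM of 24.8 and 14.1 in untreated and 12.4 and 9.97 in doxorubicin libraries (log2 fold change -1.29 without untreated replicate 2, adjusted p = 1.0e-04). With 4 libraries it was -0.95 (adjusted p = 0.773), and without untreated replicate 1 it was -0.41 (adjusted p = 0.203). VCAM1, TAP1 and PSMB9 were listed at 0 in all 4 libraries, which does not show that the transcripts were absent.

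Of the 16 target cytokines and chemokines 8 were tested, and 7 of the 8 had a log2 fold change above 0 with 4 libraries, beside 50.8% of all genes. Both doxorubicin libraries were above both untreated libraries in 6 of the 8, beside 30.3% of all genes tested. They were below both in 1, CCL2, beside 11.5%. The median log2 fold change of the 8 was 1.29 with 4 libraries and 1.63 without untreated replicate 2. Of the 8, IL1B had 7 and 15 counts in untreated and 119 and 188 in doxorubicin libraries. It passed the filter on low counts through the latter, so the values for the 8 include a gene admitted by its doxorubicin level. CXCL8, which encodes the neutrophil chemokine interleukin 8, had a CPM of 1.49 and 3.95 in untreated and 13.3 and 19.1 in doxorubicin libraries. IL1B had 0.19 and 0.52 against 3.47 and 6.82, and IL1A had 1.08 and 3.12 against 6.38 and 8.96. The treated libraries were above both untreated libraries in these 3 genes, which was not so for RELB. With 4 libraries the log2 fold changes were 2.43 for CXCL8, 3.72 for IL1B and 1.73 for IL1A, each with an adjusted p of 0.773 in the edgeR test. They were 3.28, 4.54 and 2.67 without untreated replicate 2, and 1.94, 3.19 and 1.20 without untreated replicate 1, so their sizes depended on the untreated library kept. CXCL3 and CXCL2 had log2 fold changes of 1.88 and 1.38 without untreated replicate 2, 1.16 and 1.41 with 4 libraries and 0.71 and 1.54 without untreated replicate 1. CCL2 went the other way, with a CPM of 2.81 and 2.81 in untreated and 1.46 and 1.85 in doxorubicin libraries. Its log2 fold change was -0.93 with 4 libraries, -0.92 without untreated replicate 2 and -0.86 without untreated replicate 1. TNF, LTA, LTB and CCL5 were listed at 0 in all 4 libraries. TNF, LTA and LTB lie on chromosome 6 between 31572054 and 31582522. TAP1 and PSMB9, also at 0, lie on it between 32844136 and 32859851. Whether reads from there were lost in mapping or counting was not tested, so these values do not show absent transcripts. The summed CPM of the 16 genes was 21.5 and 34.5 in untreated and 55.4 and 73.0 in doxorubicin libraries. The summed CPM of the liver, leukocyte and fibroblast markers was also higher in both doxorubicin libraries, though the median log2 fold change of the fibroblast markers was below 0. That of the simple epithelium, squamous and endothelial markers was lower in both, as given above. The part of these markers in the cytokine values was not tested.

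**Figure D4:**
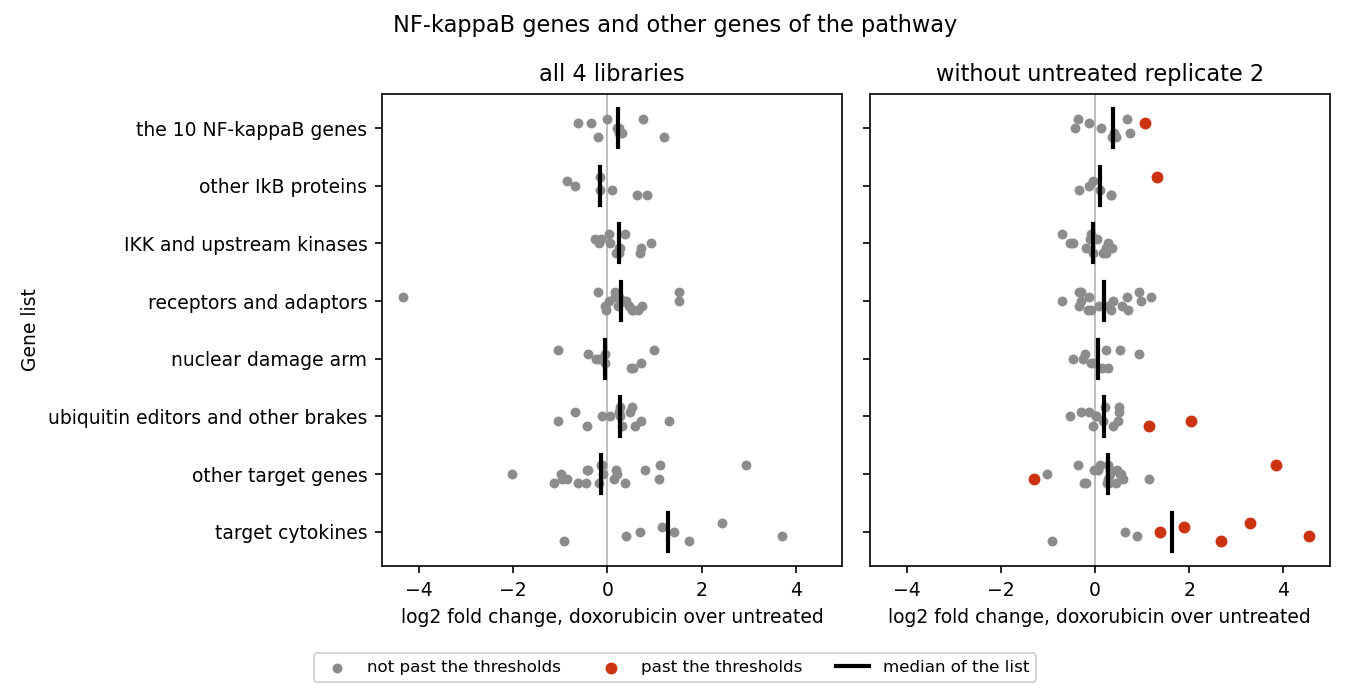
Log2 fold change of doxorubicin over untreated cells (horizontal axis) for the tested genes of the 8 lists (vertical axis), with all 4 libraries on the left and without untreated replicate 2 on the right. Each point is 1 gene, black bars are list medians and red points passed both thresholds: 0 on the left, and on the right RELB, 9 other genes as higher and 1 as lower.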

How the data were processed

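RNA-seq of 4 libraries labelled HepG2 was used, 2 untreated and 2 doxorubicin-treated, grouped by their titles. The series' description calls the replicates biological. The authors checked and trimmed reads (FastQC, Cutadapt), aligned them by HISAT2 (hg38, per the submitters' processing notes) and deposited raw counts per gene symbol. Their methods name HTSeq, and the header names GENCODE release 31. Tool versions and the use of strand are not given in the sources used here.

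CPM was the count over the library total times 1000000. Tests used R 4.3.3 and edgeR 4.0.16 (filterByExpr, TMM, glmQLFit, glmQLFTest, prior count 0.125) on all genes. Standard errors were the log2 fold change over the root of its F statistic. Alternatives were the likelihood ratio test, DESeq2 1.42.0, RLE factors, library size alone, no filter, a floor of 1 CPM in 2 or more libraries, a prior count of 2, a replicate block, the longest transcript as length, and each library left out. Poisson intervals and count ratios cover counting error only. In the smallest and the largest library, 3 counts were a CPM of 0.109 and 0.0827. Positions are from GENCODE release 44 (GRCh38) and promoters from RefSeq. The 10 genes, the 7 pathway lists, the 6 marker lists and the rule for named genes were chosen with earlier results of these data known. The rule named all 10 genes and, per list, up to 4 genes with an unadjusted p-value under 0.05 with 4 libraries or a call without untreated replicate 2. FGA, FGB, KRT8, KRT18, EPCAM, CDH1, SFN, KRT5, KRT6A, TP63, DSG3, DCN, LUM, CSF1R, ITGB2, PTPRC, CXCL2, CCL2, VCAM1, TAP1, PSMB9, TNF, LTA, LTB, CCL5 and MYD88 were named after their values were seen.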

Additional observations from a re-analysis of the deposited data

How the results depend on the processing

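Of the 10 genes, 0 were called under the likelihood ratio test, DESeq2, RLE factors, library size alone, no filter, the CPM filter or the replicate block. With each library left out in turn, between 0 and 2 were called: 2 (NFKB1 and BIRC3) without untreated replicate 1, 1 (RELB) without untreated replicate 2, and 0 without either doxorubicin replicate. Over all genes, 0 were called with 4 libraries (768 at an unadjusted p-value under 0.05 in the edgeR test), 64 by the likelihood ratio test, 89 by DESeq2, 20 with the replicate block, 8697 without untreated replicate 1, 815 without untreated replicate 2 and 0 without either doxorubicin replicate. NFKB2, REL, RELA, TNFAIP3 and BIRC3 kept their sign in all 12 alternatives. With a library left out, the other genes changed sign: NFKB1 lay between -0.42 and 1.49 on the log2 scale, RELB between -0.97 and 1.06, NFKBIA between -0.36 and 0.54, NFKBIE between -0.52 and 0.37, and ICAM1 between -0.049 and 0.74. The log2 fold change of NFKBIA, -0.01 with 4 libraries, was also above 0 with library size alone (0.15), with no filter (0.031) and with the replicate block (0.052). The cause was not tested. No source says that a replicate number marks a shared culture or day, so the block was kept as an alternative. The correlation between the deviations of libraries with the same number was 0.0219. Untreated replicate 2 was outside the range of the other libraries in 81.6% of genes, so this value cannot decide whether replicates were paired. With the longest transcript as length, TNFAIP3 and NFKBIE exchanged ranks in the doxorubicin libraries. In the untreated libraries NFKB1 moved from rank 6 to rank 8, below BIRC3 and TNFAIP3. Its share of the subunit sum fell to 4.58% and 0.82% in untreated replicates 1 and 2, and to 3.16% and 3.42% in the doxorubicin replicates. The ratio of NFKB2 to NFKB1 was larger with this length in every library.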

Other observations

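MYD88, the adaptor of the Toll-like and interleukin 1 receptors upstream of NF-κB, was picked once its values were known. It had 6 counts in untreated replicate 1 and 446 in untreated replicate 2, and 18 and 8 counts in doxorubicin replicates 1 and 2. As CPM these are 0.17, 15.4, 0.52 and 0.29.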
